A study of Prunus persica with 2 samples.

Results

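Expression of 6 ripening genes was measured in wounds of peach (Prunus persica) fruit. The genes were chosen by identifier from the 27806 gene rows: ACC synthase 1 and ACC oxidase 1, a pair of neighbouring endopolygalacturonase genes and a pair of NAC transcription factor genes. All 6 were measured, and they carry 17 of the 51199 listed transcripts. The libraries came from wound tissue given 30 μL of a Pichia membranaefaciens suspension, a yeast studied as an antagonist of postharvest rot, or 30 μL of sterilized water as control. Fruit stood at 28 °C and 95% relative humidity and were sampled on day 3. Each treatment has 1 library, and the labels name neither the cultivar nor the ripeness nor the number of fruit behind a library. Without replicates there is no replicate error and no test, so every interval below covers counting error only and a treatment effect cannot be told apart from a difference between the fruit sampled. The series set out to find genes related to resistance that differ between tissue with and without the yeast.

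Peach is a climacteric fruit, in which ripening runs with a burst of the gas ethylene. ACC synthase makes the ethylene precursor ACC from S-adenosylmethionine, and ACC oxidase turns ACC into ethylene. Endopolygalacturonase cuts the pectin backbone of the cell wall, and in peach its locus is known for separating melting from non-melting flesh. NAC proteins are plant transcription factors, and the pair on chromosome 4 lies in the region known for control of maturity date. The gene names follow usage in peach genetics. The deposited tables list identifiers only, so neither the names nor the tissue could be checked against products, and no sequence was compared.

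Levels of the 6 gene rows ran from 20.9 to 12038 FPKM with the yeast and from 9.32 to 9699 FPKM with water, and 5 of the 6 differed between yeast and water by less than the threshold used. Levels are FPKM, the number of fragments scaled for exon length and library depth. Differences are yeast minus control on the log2(FPKM + 1) scale, and a gene was counted as higher or lower from a difference of 1 in size, if it reached 1 FPKM in a library. The NAC gene Prupe.4G186800 was the 1 member counted as higher, and none (0) was counted as lower. Over all 15197 genes that reached 1 FPKM, 3.30% were past this threshold, 1.61% higher and 1.70% lower. The endopolygalacturonase rows hold the same values, so the 6 rows are 5 measurements. Their median difference was -0.06, compared with 0.02 over all genes and -0.09 over the 926 genes whose mean reached 100 FPKM. In bulk tissue, fewer cells of a type and less RNA per cell cannot be told apart.

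**Figure D1:**
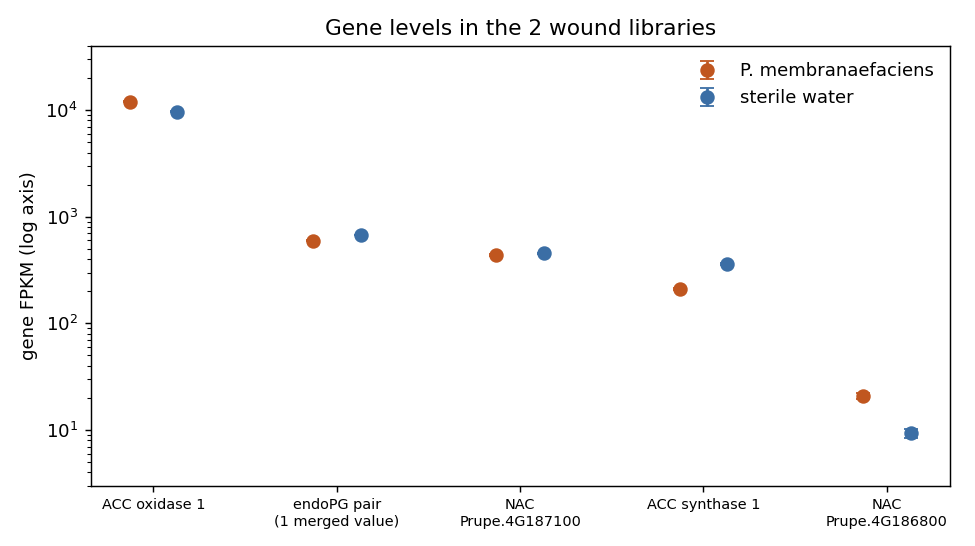
Gene FPKM of the 5 distinct measurements on a log axis, with the yeast library left of the water library at each gene and bars for the 95% Poisson counting interval. ACC oxidase 1 lies above the other genes in both libraries, and Prupe.4G186800 lies lowest, at 20.9 FPKM with the yeast and 9.32 FPKM with water.

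By the gene values, with the endopolygalacturonase pair as 1 merged value, the order of the levels was the same in both libraries. ACC oxidase 1 led, followed by the endopolygalacturonase pair, the NAC gene Prupe.4G187100, ACC synthase 1 and the NAC gene Prupe.4G186800. No counting intervals of neighbours in this order overlapped. The level of Prupe.4G187100 was 2.07 times that of ACC synthase 1 with the yeast and 1.26 times in the control, where these neighbours were closest. On their own transcripts alone the lowest places changed: Prupe.4G262200 of the endopolygalacturonase pair had 16.1 FPKM with the yeast and 18.3 FPKM in the control, below Prupe.4G186800 with the yeast (20.9 FPKM) and above it in the control (9.32 FPKM).

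ACC synthase 1 (Prupe.2G176900) occupies Pp02 from 22202265 to 22205502 on the minus strand, and its only listed transcript has 4 exons. It stood at 212 FPKM in the yeast library and at 360.5 FPKM in the control library, a difference of -0.77. It was the member furthest below its control value, though not past the threshold. The estimated 11796 yeast and 21433 control fragments correspond to a ratio of 0.587 (95% counting interval 0.574 to 0.6003). Of the 15197 genes, 425 (2.80%) lay at least as far below their control value. Among the 926 genes whose mean reached 100 FPKM, 17 (1.84%) did, and 2.27% of those genes were past the threshold in either direction. By level, ACC synthase 1 ranked 338 in the yeast library and 178 in the control library. No opposite-strand or newly assembled transcript overlaps this gene, so its value rests on 1 transcript model. Its nearest annotated neighbours were low: Prupe.2G176700 had 4.13 FPKM with the yeast and 4.17 FPKM in the control, and Prupe.2G176800 was listed at 0 in both. On the other side, Prupe.2G177000 had 0.824 and Prupe.2G177100 had 2.08 FPKM with the yeast, against 1.94 and 3.15 FPKM in the control.

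ACC oxidase 1 (Prupe.3G209900) lies on the minus strand of Pp03 from 21547735 to 21549448. It had 12038 FPKM in the yeast library and 9699 FPKM in the control library, a difference of 0.31. It was among the most abundant genes, ranking 4 with the yeast and 3 in the control, and took 1.87% of all fragments with the yeast and 1.51% in the control. The ratio of fragments was 1.24 (95% counting interval 1.24 to 1.25), and 15.0% of all genes lay at least as far above their control value. That share was 9.72% among the 926 genes whose mean reached 100 FPKM. By the gene values, the level of ACC oxidase 1 was 56.9 times that of ACC synthase 1 with the yeast and 26.9 times in the control. On annotated transcripts alone it was 11.1 times with the yeast and 21.7 times in the control, and ACC oxidase 1 then stood at a difference of -1.73. That count leaves out newly assembled transcripts, which made up 83.6% of its summed FPKM with the yeast and 27.0% in the control.

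**Figure D2:**
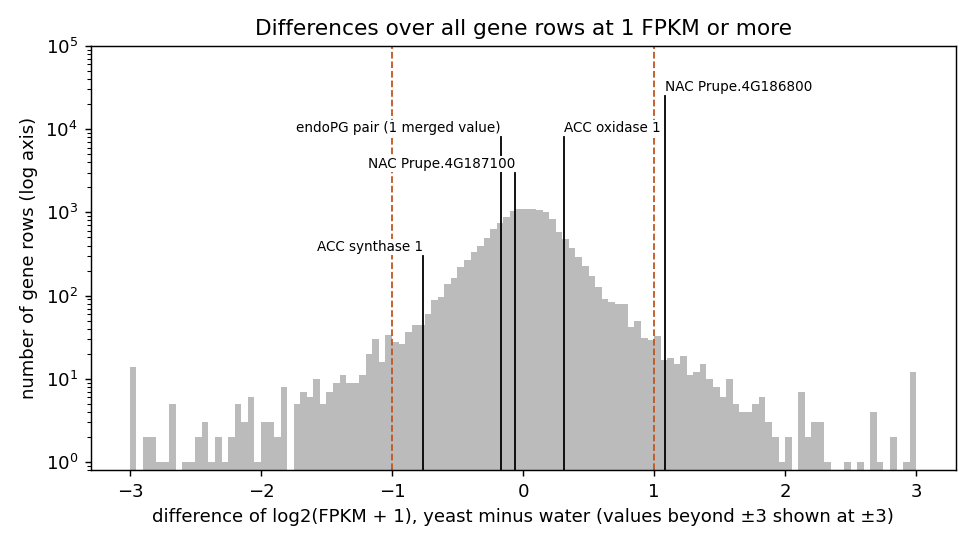
Number of gene rows (log axis) by the difference of log2(FPKM + 1), yeast minus water, for 15197 rows at 1 FPKM or more, with the threshold of 1 as dashed lines and the members as vertical lines whose heights carry no value. Prupe.4G186800 at 1.08 lies just past the threshold and ACC synthase 1 at -0.77 is short of it, while the other members lie within the bulk of genes.

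Although the gene total differed by less than the threshold, the transcripts listed for ACC oxidase 1 were exchanged between the libraries in the estimates of the authors' software. Prupe.3G209900.1, of 4 exons, had 2165 FPKM with the yeast and 4981 FPKM in the control. Transcript Prupe.3G209900.2, of 3 exons, had 184 FPKM with the yeast and 2827 FPKM in the control. These are the annotated forms, and both were lower with the yeast. Newly assembled transcript MSTRG.6747.4, of 5 exons, had 12014 FPKM with the yeast and was listed at 0 in the control. Another assembled transcript, MSTRG.6747.1, also of 5 exons, was listed at 0 with the yeast and had 2895 FPKM in the control. The leading transcript was therefore MSTRG.6747.4 with the yeast, at 83.6% of the summed FPKM, and Prupe.3G209900.1 in the control, at 46.5%. Annotated transcripts together made up 16.4% with the yeast and 73.0% in the control. Counted on annotated transcripts alone, ACC oxidase 1 had 2349 FPKM with the yeast and 7807 FPKM in the control. That count leaves out the new transcripts, which made up 83.6% of the summed FPKM with the yeast and 27.0% in the control. Its direction therefore differs from that of all fragments at the locus, whose ratio was 1.24.

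Both new transcripts reach far beyond the annotated gene. MSTRG.6747.4 spans 19.2 kb, from 21547835 to 21567047, and MSTRG.6747.1 spans 31.0 kb, from 21547735 to 21578744, with spliced lengths of 1285 and 1362 bases. On the minus strand their far ends lie upstream of the gene. The shorter one passes over Prupe.3G210000, with 3.92 FPKM with the yeast and 6.66 FPKM in the control, and Prupe.3G210100, with 18.2 FPKM with the yeast and 19.8 FPKM in the control. The longer one also passes Prupe.3G210200 (0.0245 FPKM with the yeast and 0.0344 FPKM in the control) and Prupe.3G210300, which was listed at 0 in both. These levels are far under those assigned to the new transcripts. Spans as long as that of MSTRG.6747.4 are uncommon, found in 125 of 4148 newly assembled transcripts (3.01%). The transcript tables give exon numbers but no exon positions, so the reads behind the distant exons cannot be counted.

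Loci with a transcript share moved by 50 percentage points or more were not rare. The largest move at ACC oxidase 1 was 83.6 points, and loci that moved as far were not counted. Among 5619 loci with several transcripts and a summed 5 FPKM in both libraries, 221 (3.93%) had a transcript share that moved by 50 percentage points or more. The median level of those loci was 12.0 FPKM, the mean of both libraries. ACC oxidase 1, at 12532 FPKM by the same sum, was the most abundant of them, and the next stood at 2993 FPKM. With its rank of 4 with the yeast and 3 in the control among all genes, few loci could have stood above it. The authors' software estimated these shares from short reads, and without replicates their spread within a treatment is unknown. The deposited gene value is less exposed to the division. In both libraries it equals the summed product of FPKM and length over the 4 minus-strand transcripts divided by 1557 bases, so it adds their fragments over a fixed length.

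Transcripts on the opposite strand of ACC oxidase 1 were lower with the yeast. MSTRG.6748.2, of 3 exons and 725 bases of span within the gene, had 36.7 FPKM with the yeast and 126 FPKM in the control. MSTRG.6748.1, of 4 exons, spans 30.7 kb and had 22.4 FPKM with the yeast and 63.6 FPKM in the control. Together they held about 737 fragments with the yeast and 2518 in the control, a ratio of 0.312 (95% counting interval 0.287 to 0.339). They were 0.156% of the fragments at this locus with the yeast and 0.619% in the control. The labels do not say whether the libraries kept strand, so a plus-strand listing may hold reads of either strand.

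The same plus-strand transcripts also set the value of another gene row. Prupe.3G210400, which lies where the longest of these transcripts end, had 43.5 FPKM with the yeast and 139 FPKM in the control in the gene table. With a difference of -1.66 it counts among the genes that were lower. Its own annotated transcript was listed at 0 in both libraries. The row equals the FPKM of MSTRG.6748.1 and MSTRG.6748.2 times their lengths over 675 bases in both libraries. It therefore reports fragments assigned to these assembled transcripts and none assigned to its annotated transcript. MSTRG.6748.1 is listed under Prupe.3G210400, on the same strand, and ends within it at 21578745. Without exon positions, its fragments cannot be divided between that gene and the region opposite ACC oxidase 1.

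**Figure D3:**
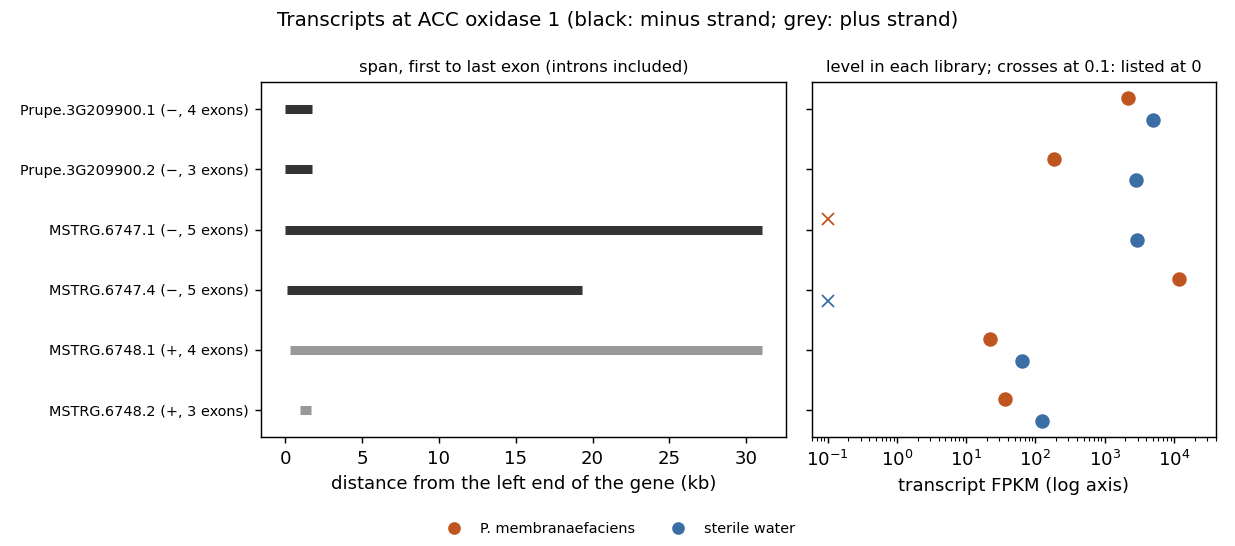
Span of each transcript at ACC oxidase 1 as distance from the left end of the gene in kb (left), and its FPKM on a log axis in the yeast library (upper point) and the water library (lower point). MSTRG.6747.4 is at 12014 FPKM with the yeast and listed at 0 with water, MSTRG.6747.1 is listed at 0 with the yeast, and the plus-strand transcripts are lower with the yeast.

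The endopolygalacturonase genes lie on the plus strand of Pp04, Prupe.4G261900 from 19046344 to 19049605 and Prupe.4G262200 from 19081325 to 19083984, with 31.7 kb between them. Each row of the gene table gave 598 FPKM in the yeast library and 673 FPKM in the control library, a difference of -0.17. The ratio of fragments was 0.889 (95% counting interval 0.879 to 0.898), and 24.7% of all genes lay at least as far below their control value. That share was 38.6% among the 926 genes whose mean reached 100 FPKM. Both rows carry the value of 1 merged locus, which adds the fragments of 4 transcripts over 4367 bases, the summed length of Prupe.4G261900.1 (2206 bases) and Prupe.4G262200.2 (2161 bases). Of 14268 annotated genes at 1 FPKM or more, 576 (4.04%) share a locus with another annotated gene. Whether the rows of those genes also hold a merged value was not tested. On the length of Prupe.4G261900.1 alone, the same fragments would come to 1184 FPKM with the yeast and 1332 FPKM in the control, which is higher than the merged value because the merged length counts both copies.

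Most of the fragments were assigned to Prupe.4G261900. Transcript Prupe.4G261900.1, of 4 exons, had 838 FPKM with the yeast and 964 FPKM in the control, a ratio of 0.869 (95% counting interval 0.859 to 0.880). It held 70.8% of the locus fragments with the yeast and 72.4% in the control. The own transcripts of Prupe.4G262200 summed to 16.1 FPKM with the yeast and 18.3 FPKM in the control, 1.28% and 1.26% of the locus fragments. Their ratio was 0.899 (95% counting interval 0.819 to 0.987). Within the pair, the level of Prupe.4G261900.1 was 52.2 times that of the other copy with the yeast and 52.8 times in the control. Within Prupe.4G262200, the 3-exon form Prupe.4G262200.2 had 13.4 FPKM with the yeast and 13.7 FPKM in the control, and the 4-exon form had 2.70 FPKM with the yeast and 4.60 FPKM in the control.

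The remaining reads were listed under a transcript that joins both copies. MSTRG.8831.2 has 5 exons, runs 36.9 kb from 19046992 to 19083909, and had 487 FPKM with the yeast and 517 FPKM in the control. It held 27.9% of the locus fragments with the yeast and 26.3% in the control, and these cannot be given to either copy. In contrast to ACC oxidase 1, the largest change of a transcript share here was 1.81 percentage points. On the minus strand, MSTRG.8833.1, MSTRG.8834.1 and MSTRG.8835.1 each have 2 exons and spans of 34.6 kb, and each starts in 1 copy and ends in the other. That length lies between the distances of 34.98 kb from start to start and 34.38 kb from end to end of the copies. Prupe.4G262000 and Prupe.4G262100, the annotated genes between the copies, were listed at 0 in both libraries. The 2 nearest annotated genes on the left, Prupe.4G261700 and Prupe.4G261800, and Prupe.4G262300 on the right were also listed at 0 in both. Prupe.4G262400 had 0.0218 FPKM with the yeast and was listed at 0 in the control. The minus-strand transcripts of the locus, MSTRG.8832.1 included, held about 94 fragments with the yeast and 95 in the control. Copies alike in sequence can share reads, which leaves the split between Prupe.4G261900 and Prupe.4G262200 uncertain; likeness of the copies was not tested.

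**Figure D4:**
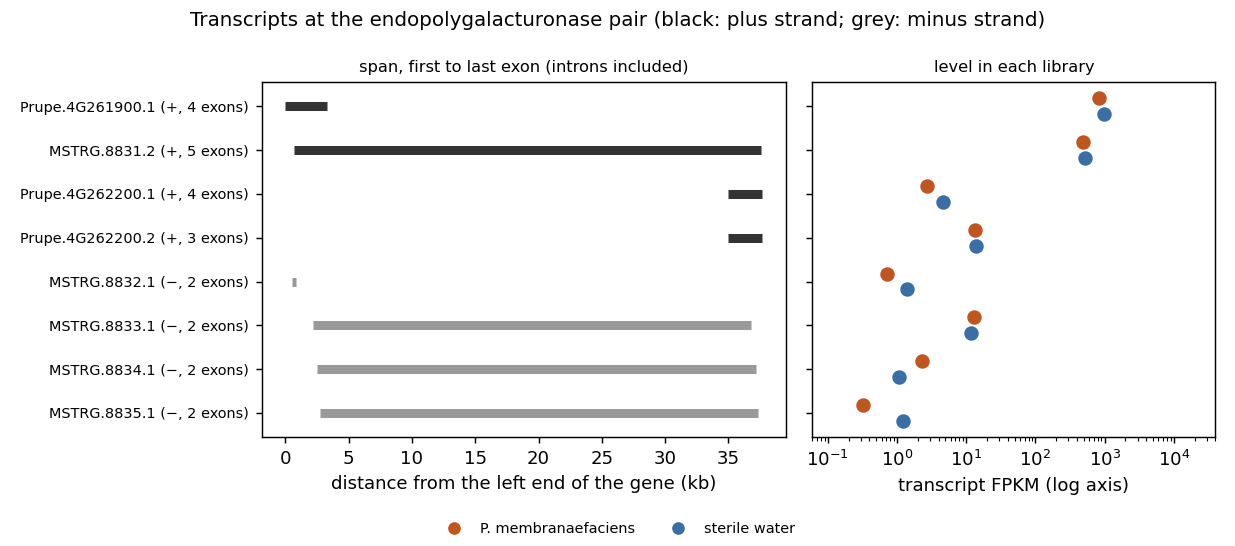
Span of each transcript at the endopolygalacturonase pair as distance from the left end of Prupe.4G261900 in kb (left), and its FPKM on a log axis in the yeast library (upper point) and the water library (lower point). Prupe.4G261900.1 and the joining transcript MSTRG.8831.2 are within 487 to 964 FPKM, and the transcripts of Prupe.4G262200 are under 14 FPKM.

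The NAC genes behaved differently from each other. Prupe.4G186800 lies on the plus strand of Pp04 from 11116814 to 11118655, with 1 transcript of 3 exons. It had 20.9 FPKM in the yeast library and 9.32 FPKM in the control library, a difference of 1.08. With about 857 yeast and 408 control fragments the ratio was 2.24 (95% counting interval 1.99 to 2.53). As log2 ratios of fragments the bounds are 0.99 and 1.34. They hold no pseudocount, unlike the difference to which the threshold applies. On this log2 scale the bounds lie on either side of 1, the size of the threshold, while the whole interval lies above the control value. Of all genes, 200 (1.32%) lay at least as far above their control value. With a pseudocount of 5 the difference was 0.85 and the gene was no longer counted as higher.

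Prupe.4G187100 lies 19.9 kb further on the same strand, from 11138518 to 11140641. It had 437 FPKM with the yeast and 456 FPKM in the control, a difference of -0.06, with a ratio of 0.959 (95% counting interval 0.942 to 0.977). Transcript Prupe.4G187100.1, of 3 exons, made up 98.4% of its summed FPKM with the yeast and 98.3% in the control. Prupe.4G187100.2, of 2 exons, had 7.44 FPKM with the yeast and 8.10 FPKM in the control. The level of Prupe.4G187100 was 21.0 times that of Prupe.4G186800 with the yeast and 48.9 times in the control.

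Genes around the NAC pair were mostly silent. Between the NAC genes, Prupe.4G186900 had 0.143 FPKM with the yeast and 0.193 FPKM in the control, and Prupe.4G187000 was listed at 0 in both. Upstream, Prupe.4G186700 was listed at 0 in both libraries and Prupe.4G186600 had 0.0573 FPKM with the yeast and was listed at 0 in the control. Downstream, Prupe.4G187200 was listed at 0 in both, and Prupe.4G187300 had 19.6 FPKM with the yeast and 13.5 FPKM in the control, a difference of 0.51.

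Likeness to a member can be read over 2 libraries only, as the distance in the plane of both log2(FPKM + 1) values. Nearest to ACC synthase 1 was Prupe.3G269100, with 218 FPKM with the yeast and 338 FPKM in the control (distance 0.10). Nearest to Prupe.4G186800 was Prupe.6G329500, with 22.0 FPKM with the yeast and 9.74 FPKM in the control (distance 0.09). ACC oxidase 1 was nearest to Prupe.8G034100, the endopolygalacturonase value to Prupe.1G463400 and Prupe.4G187100 to Prupe.2G317100, at distances of 0.17, 0.07 and 0.08. With so few libraries these distances show like abundance and nothing about shared behaviour.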

How the data were processed

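The authors deposited FPKM values in 1 gene table and in 1 transcript table per library, with coverage per transcript; the FPKM and the coverage signal were used as deposited. Per the submitters' processing notes HISAT2 and HTSeq 0.6.1 are named, with no role given. No source used here gives the build, annotation, transcript assembler or strand setting. Positions are those of the transcript tables.

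Samples were grouped by their treatment label. Differences are of log2(FPKM + 1) with a filter of 1 FPKM in at least 1 library and a threshold of 1. Coverage times length was most often 300 bases among barely covered transcripts, taken as 1 fragment, which gave 25121265 fragments with the yeast and 26792572 in the control; fragment numbers are estimates. Ratio intervals are exact (Clopper-Pearson) at 95%, and levels have Poisson intervals. Simulated counts with known changes were used to check the threshold rule. Software was Python 3.11.15, pandas 2.3.3 and scipy 1.17.1.

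The members and lists were chosen with earlier results of these data known. Named by rule besides the members are genes between and flanking the pairs and the gene nearest in level; Prupe.3G210400, genes under long transcripts and those flanking ACC synthase 1 were added after their values were seen. Lists by product name (ethylene, cell wall, NAC, tissue markers) were not run, since 0 of 26873 identifiers matched the RefSeq table of Prunus_persica_NCBIv2.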

Additional observations from a re-analysis of the deposited data

How the results depend on the processing

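ACC synthase 1 moved within counting error under all 7 alternatives run for single genes. Transcript sums and annotated transcripts alone could not move it, since only 1 transcript is listed for it. Annotated transcripts alone reversed ACC oxidase 1 (-1.73), which then counted as 1 lower member, because this count leaves out the new transcripts. It gave -0.20 at Prupe.4G261900. Transcript sums, taken by listed gene and so including MSTRG.6748.2 on the opposite strand, gave 0.41 at ACC oxidase 1. Upper quartile and trimmed mean scaling gave 0.29 and 0.28 at ACC oxidase 1 and -0.19 and -0.20 at both endopolygalacturonase rows, and trimmed mean scaling gave -0.091 at Prupe.4G187100, with no change of direction. With a pseudocount of 5, Prupe.4G186800 was at 0.85 and 0 members were higher, as at a threshold of 2. Over all genes, 491 were higher and 447 lower with a pseudocount of 0.1, 87 and 87 with 5, and 40 and 53 at a threshold of 2; a 5 FPKM filter left 163 higher and 164 lower. Shares computed from fragments were 82.4% for MSTRG.6747.4 and 16.2% for Prupe.3G209900.1 with the yeast, 46.2% for that annotated transcript in the control, and 70.8% with the yeast and 72.4% in the control for Prupe.4G261900.1. Lists by product name were not run. No paired analysis was possible because there is only 1 library per treatment; for that reason none could be left out. Depth limits Prupe.4G186800 most, with about 408 control fragments.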
